A study of Mus musculus with 6 samples.

Results

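Collagens, laminins and their partners in the basement membrane were followed in adult mouse hepatocytes that were made to express the transcription factor SOX4. Members were set by gene symbol, with earlier results of these data known. They were every collagen chain gene (symbols of the form Col, number, a, number), every laminin chain gene (Lama, Lamb and Lamc with a number), and Fn1, Nid1, Nid2, Hspg2, Agrn and Sparc. This gave 61 of the 53599 gene symbols in the count table, namely 44 collagens, 11 laminins and 6 others. Type I and III collagen genes (Col1a1, Col1a2 and Col3a1), which in liver are mainly products of stellate cells, were kept apart from the rest.

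The study used male Rosa-LSL-Cas9-EGFP mice of C57BL/6J background, 4 to 8 weeks old, which received an adeno-associated virus of serotype 8 (AAV8). The 3 control libraries (EV, labelled WT) came from animals given AAV8-TBG-Cre, and the 3 Sox4 libraries from animals given AAV8-TBG-HA-Sox4-P2A-Cre. Both vectors express Cre from TBG, a hepatocyte promoter, so that Cas9 and EGFP are switched on in control hepatocytes too. Hepatocytes were collected 4 days after injection by liberase digestion and Percoll enrichment, which does not remove every other liver cell. Each library held 15090629 to 16964860 gene counts. Sox4 itself had 2, 0 and 3 counts in the EV libraries and 21697, 15097 and 11816 counts in the Sox4 libraries, so all 6 libraries matched their labels. CPM below is the count scaled to a common library size. Alb, the albumin gene and a hepatocyte marker, averaged 99191 CPM in EV and 66525 CPM in Sox4, a difference that rests on the scaling described below (log2 -0.10 and adjusted p = 0.627 with total counts).

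Library 1 of each group stood apart in the genes of other liver cells. EV library 1 held 0.404 of the mean of the other EV libraries in summed stellate cell markers without Reln, 0.499 in Kupffer cell markers and 0.624 in endothelial markers, and Sox4 library 1 held 0.295, 0.464 and 0.495 of the mean of the other Sox4 libraries. Tested genes at or under 0.5 of the mean of the other 2 Sox4 libraries in Sox4 library 1 made up 3.57% of all genes, a split noticed after the values were seen. They included 6 of 7 tested stellate cell markers, 11 of 16 endothelial markers and 6 of 11 Kupffer cell markers, against 0 of 5 cholangiocyte and 0 of 9 hepatocyte markers. Among the matrix genes 8 of 32 were in this class, namely Col1a2, Col3a1, Col5a2, Col14a1, Col4a5, Lamb1, Lamb3 and Sparc. Without EV library 1 all 21 calls described below were made again, with 23 of 40 genes called (57.5%, against 47.7% of all genes tested). Without Sox4 library 1 Lamb3 (log2 -1.24, adjusted p = 0.0145) and Sparc (log2 3.13, adjusted p = 1.35e-06) stayed past the threshold, Col5a2, Col14a1, Col4a5 and Lamb1 stayed outside it (adjusted p = 0.0674 to 0.234), and Col1a2 and Col3a1 are treated below. In RNA from a whole cell preparation, fewer cells of a type and less RNA per cell cannot be told apart.

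The basement membrane is a thin sheet of matrix under epithelia and around vessels. Laminins, each built from an alpha, a beta and a gamma chain, form one network on the cell surface, and type IV collagen forms a second. Nidogens and the heparan sulfate proteoglycans perlecan (Hspg2) and agrin (Agrn) bind to these networks. A normal liver has a continuous basement membrane around bile ducts and portal vessels, whereas the sinusoidal face of hepatocytes lacks one, and fibrillar collagens there are made largely by stellate cells.

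Upstream sequences are shown for basement membrane genes with large changes and for a stellate-type collagen gene. RefSeq windows (GRCm38.p6, whereas the counts were made on GRCm39) were matched for 44 of the 61 members, and the 250 bases before the annotated start were searched on both strands for SOX letters (ACAAAG or ACAATG), TEAD letters (GGAATG) and AP-1 letters (TGACTCA or TGAGTCA). Capitals mark such matches. Apart from the last, which is not upstream sequence, printed stretches read 5′ to 3′ on the strand of the gene. They stop at the first annotated exon base, which shortens those of Lamb2 and Nid1.
Lamb2, chr9:108479612-108479735, plus strand: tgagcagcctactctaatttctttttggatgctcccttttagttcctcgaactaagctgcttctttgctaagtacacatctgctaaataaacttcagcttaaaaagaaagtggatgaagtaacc
Nid1, chr13:13437352-13437550, plus strand: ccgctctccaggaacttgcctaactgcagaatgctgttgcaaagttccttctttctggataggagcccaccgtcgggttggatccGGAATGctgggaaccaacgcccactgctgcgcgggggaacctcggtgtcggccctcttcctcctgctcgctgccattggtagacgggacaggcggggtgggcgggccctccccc
Lama5, chr2:180225860-180226109, minus strand: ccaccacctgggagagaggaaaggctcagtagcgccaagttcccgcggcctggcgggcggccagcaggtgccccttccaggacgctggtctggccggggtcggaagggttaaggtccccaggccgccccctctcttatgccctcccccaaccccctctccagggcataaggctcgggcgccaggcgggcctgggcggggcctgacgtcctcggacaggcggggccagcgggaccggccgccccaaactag
Col3a1, chr1:45311288-45311537, plus strand: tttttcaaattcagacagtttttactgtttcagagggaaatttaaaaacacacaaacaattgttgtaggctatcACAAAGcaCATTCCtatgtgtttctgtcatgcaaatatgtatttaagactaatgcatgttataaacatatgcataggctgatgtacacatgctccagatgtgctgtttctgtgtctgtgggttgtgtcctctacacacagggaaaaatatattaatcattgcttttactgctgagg
Col4a1 and Col4a2, bases between their starts, chr8:11312806-11312825, plus strand: gtgcgcgggcggcgtctcca

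The last stretch is only 20 bases long and lies between the annotated starts of Col4a1 (minus strand) and Col4a2 (plus strand). Exons of Col4a1 share 0.29% of their bases with Col4a2 on the other strand. The first exons thus overlap at these starts, and the stretch is exon sequence of both genes. SOX letters were found upstream of 5 of the 44 matched genes (11.4%; Agrn, Col10a1, Col20a1, Col28a1 and Col3a1), against 28.2% of 27025 genes with a window. TEAD letters were found in 6 (13.6%; Col18a1, Col20a1, Col3a1, Col6a2, Lamb3 and Nid1) against 14.4%, and AP-1 letters in 1 (2.27%; Col6a1) against 5.16%. No matrix gene share was above that of all genes. These are letter matches in a short window, not binding sites.

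Of the 61 genes, 8 had no count in any library, 21 more had counts too low for the expression filter, with at most 26 in a library, and 32 were tested. Past an adjusted p of 0.05 in edgeR's quasi-likelihood test, with Benjamini-Hochberg adjustment over all genes, were 21 of the 32 (65.6%), 16 higher and 5 lower in Sox4 hepatocytes. Across all 12691 genes tested the share was 55.1%, with 29.0% higher and 26.0% lower. With this scaling the matrix genes held more rises and fewer falls than their number would give at those shares. The filter bears on this count. The called genes Lamb2, Col22a1, Lama2, Col16a1, Col6a6 and Col1a2 had at most 9 counts in any EV library. They reached the test only through their Sox4 counts, so they could enter it only on the side of a rise, and they add to the median below. Genes of this kind are also part of the share over all genes. Groups did not overlap for 17 genes with the Sox4 libraries on top and for 5 with the EV libraries on top, against 63.0% of all genes. The median log2 fold change of the 32 was 0.95, beside 0.04 over all genes. That zero point is set by the scaling: TMM, which uses the bulk of genes as its reference, was applied here, and scaling by total counts alone puts the median of all genes at 0.51. With total counts every log2 change below would be higher by about that difference, and the calls over all genes would be 6468 higher and 1624 lower in place of 3684 and 3306. Of the matrix genes 19 would be higher and 5 lower, and the share that fell would no longer be below that of all genes. Without the 2 stellate-type collagens the counts were 14 higher and 5 lower of 30.

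**Figure D1:**
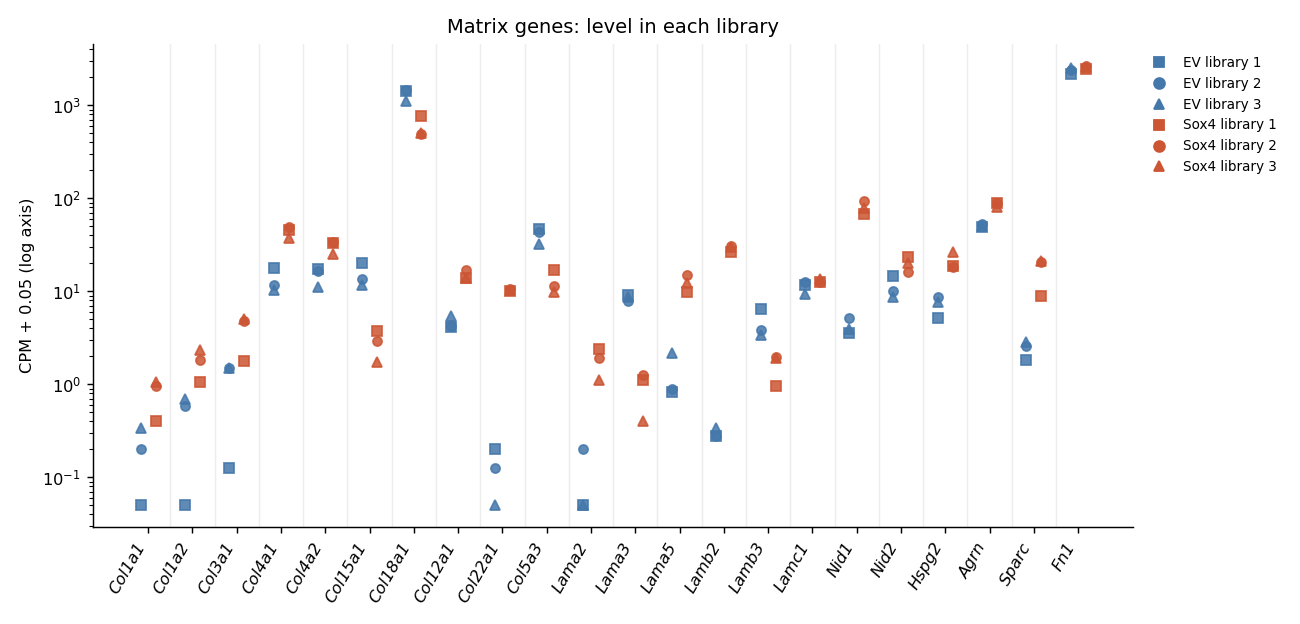
Level of 22 matrix genes in each of the 6 libraries, in CPM plus 0.05 on a log axis, with EV in blue and Sox4 in red and a symbol shape for each library number. Lamb2, Nid1, Lama5 and Col22a1 separate widely between the groups, Lama3, Lamb3, Col15a1, Col18a1 and Col5a3 lie lower in Sox4, Fn1 and Lamc1 overlap, and the stellate-type collagens are low in library 1 of both groups.

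Laminin chains changed in opposite directions within the same class. Lamb2, the beta-2 chain, was at 0.231, 0.228 and 0.290 CPM in the EV libraries and at 26.6, 30.9 and 29.6 CPM in the Sox4 libraries. It was nearly silent in all EV libraries, with 3, 3 and 4 counts, and the Sox4 libraries lay close together. The fold change was 112 (log2 6.81 ± 0.10 SE, adjusted p = 6.80e-08). It rests on 10 EV counts in all, where the prior count damps the SE, so this SE understates the uncertainty of the fold. Lamb3, a beta chain of epithelial laminins of the skin type, was 6.40, 3.80 and 3.34 CPM in EV and 0.902, 1.94 and 1.88 CPM in Sox4. It fell in all Sox4 libraries, 2.86-fold (log2 -1.51 ± 0.43, adjusted p = 0.00744). Lamb1, the beta chain of the most widespread laminins, overlapped between groups (EV 0.573 ± 0.173 CPM, Sox4 0.998 ± 0.613 CPM, SD, n = 3, adjusted p = 0.282).

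Among the alpha chains, Lama5, the main alpha chain of adult epithelial and vascular basement membranes, read 0.771, 0.835 and 2.11 CPM in EV against 9.82, 15 and 12.4 CPM in Sox4. The groups were well apart, and the rise was 9.90-fold (log2 3.31 ± 0.46, adjusted p = 5.48e-05). Lama3, the alpha chain that pairs with the Lamb3 product, went the other way, from 9.09, 7.90 and 8.64 CPM to 1.05, 1.23 and 0.355 CPM. Every Sox4 library was below every EV library, and the fall was 9.66-fold (log2 -3.27 ± 0.47, adjusted p = 6.24e-05). Lama2, best known from muscle and nerve, had 0, 2 and 0 counts in EV and 47, 37 and 21 in Sox4. It rose from near nothing, with a ratio of 35.4 (95% exact counting interval 9.55 to 296) and an adjusted p of 6.80e-04. Both EV counts were in library 2, so EV was at 0 without it. Lama1 and Lama4 were below the filter, with 9 and 21 counts over the EV libraries and 29 and 33 over the Sox4 libraries.

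Lamc1, the gamma chain shared by most laminins, was 11.2 ± 1.69 CPM in EV against 12.8 ± 0.564 CPM in Sox4, with overlap between the groups (log2 0.20 ± 0.13, adjusted p = 0.303). Scaled by total counts it was higher instead (log2 0.67, adjusted p = 0.00452). Lamc3 had no count in any EV library and 8, 6 and 22 counts in the Sox4 libraries, at least 8.08-fold higher against a floor of 3 counts over the EV group. It was below the filter, and its exons share 6.27% of their bases with an antisense gene. Of the 7 laminins tested, 3 rose and 2 fell, beside 29.0% and 26.0% of all genes tested.

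Divided by exon length, so that chains can be set side by side, the makeup of laminin alpha and beta chain mRNA differed between the groups in every library. Lama3 was 81.8% ± 5.74 of alpha chain mRNA in EV and 5.97% ± 3.12 in Sox4, while Lama5 went from 10.9% ± 5.84 to 78.9% ± 3.47 (SD, n = 3). Among beta chains Lamb3 was 86.2% ± 6.03 in EV and 4.57% ± 1.35 in Sox4, and Lamb2 went from 5.61% ± 1.99 to 93.5% ± 2.39. Summed over each class, alpha chains were at 0.974 ± 0.0703 CPM per kb in EV and 1.38 ± 0.257 in Sox4, and beta chains at 0.781 ± 0.229 and 5.11 ± 0.499. The beta sum differed more between the groups than the alpha sum, and nearly all of it in Sox4 was Lamb2. These are shares of mRNA and say nothing of assembled trimers.

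**Figure D2:**
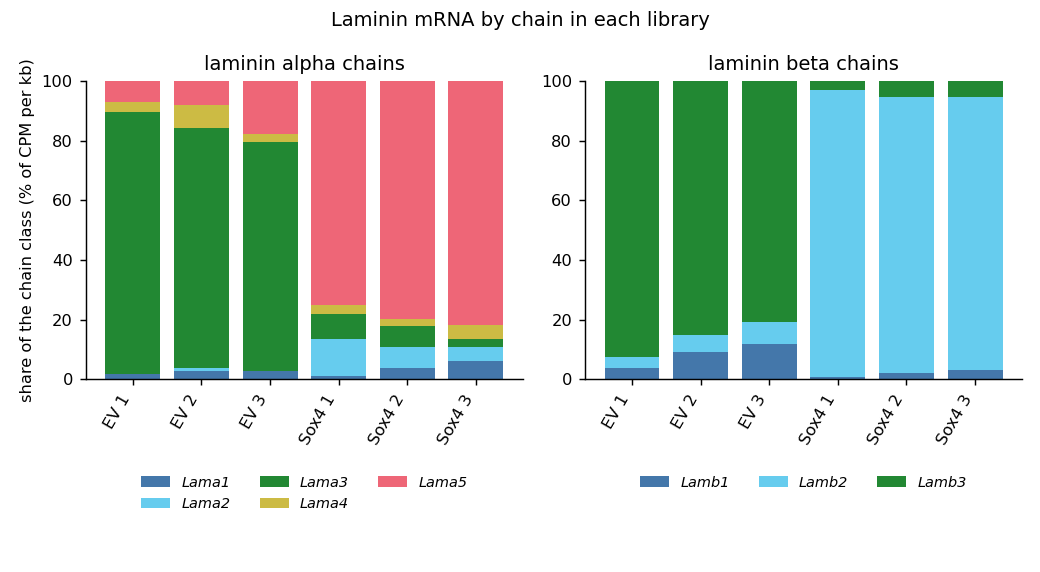
Share of each laminin chain in the mRNA of its class, in percent of CPM per kb of exon, as stacked bars with one bar per library (EV 1 to 3, then Sox4 1 to 3) and a panel each for the alpha and beta chains. Lama3 and Lamb3 fill most of the EV bars and Lama5 and Lamb2 most of the Sox4 bars, in all 6 libraries.

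Nidogens and basement membrane proteoglycans were higher, 4 of 4, beside 29.0% of all genes tested. Nid1 was at 3.54, 5.09 and 3.92 CPM in EV and at 67.0, 94.3 and 77.9 CPM in Sox4. All Sox4 libraries were far above all EV libraries, and the rise was 19.0-fold (log2 4.25 ± 0.21, adjusted p = 3.23e-07). Nid2, its close relative, went from 14.5, 9.95 and 8.64 CPM to 23.6, 16.1 and 20.2 CPM, a smaller step without overlap (1.81-fold, log2 0.86 ± 0.27, adjusted p = 0.00766). Exons of Nid2 share 8.45% of their bases with Rtraf on the other strand, and without a known strand setting reads there cannot be assigned. Hspg2 rose 2.94-fold, from 5.16, 8.73 and 7.63 CPM to 18.9, 18.0 and 26.4 CPM (log2 1.56 ± 0.28, adjusted p = 3.02e-04). Agrn had the smallest spread of the 4, with 48.7, 53.2 and 49.9 CPM against 88.7, 88.1 and 80.8 CPM, a rise of 1.70-fold (log2 0.76 ± 0.06, adjusted p = 1.89e-04). Per kb of exon Nid1 was ranked 14 among the 61 genes in EV and 3 in Sox4, passing Nid2 on the way (0.603 ± 0.116 and 2.13 ± 0.593 CPM per kb in EV, 11.5 ± 1.98 and 3.86 ± 0.722 in Sox4).

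Basement membrane collagens divided by type. Col4a1, whose product joins that of Col4a2 in the common type IV trimer, was at 17.6, 11.5 and 10.4 CPM in EV and 45.4, 49.7 and 37.8 CPM in Sox4. The rise was 3.36-fold with no overlap (log2 1.75 ± 0.26, adjusted p = 7.96e-05). Col4a2 went from 17.3, 16.3 and 11 CPM to 33.3, 33.8 and 25.3 CPM, 2.07-fold (log2 1.05 ± 0.24, adjusted p = 0.00121). It moved less than its neighbour on the chromosome: the ratio of Col4a1 to Col4a2 per kb was 0.903, 0.627 and 0.834 in EV and 1.21, 1.30 and 1.32 in Sox4, without overlap between the groups. Col4a5, a chain of a tissue-restricted trimer, varied widely and overlapped, at 1.93, 5.01 and 3.99 CPM against 3.21, 4.75 and 10.3 CPM (adjusted p = 0.221). Col4a3, Col4a4 and Col4a6 stayed below the filter, with at most 10 counts in a library.

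Collagens XV and XVIII, which carry heparan or chondroitin sulfate chains and sit in the basement membrane zone, were lower. Col18a1, the precursor of endostatin and a gene that hepatocytes express strongly, was at 1425, 1467 and 1120 CPM in EV and 774, 497 and 498 CPM in Sox4. It fell 2.27-fold without overlap (log2 -1.18 ± 0.25, adjusted p = 9.45e-04), and by 0.71 on the log2 scale when scaled by total counts (adjusted p = 0.0123). Col15a1 was at 20.3, 13.7 and 11.7 CPM in EV and 3.71, 2.91 and 1.67 CPM in Sox4. This was the largest fall of a collagen tested, 5.49-fold (log2 -2.46 ± 0.40, adjusted p = 1.57e-04). So of 5 basement membrane collagens tested, 2 rose and 2 fell, beside 29.0% and 26.0% of all genes tested.

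**Figure D3:**
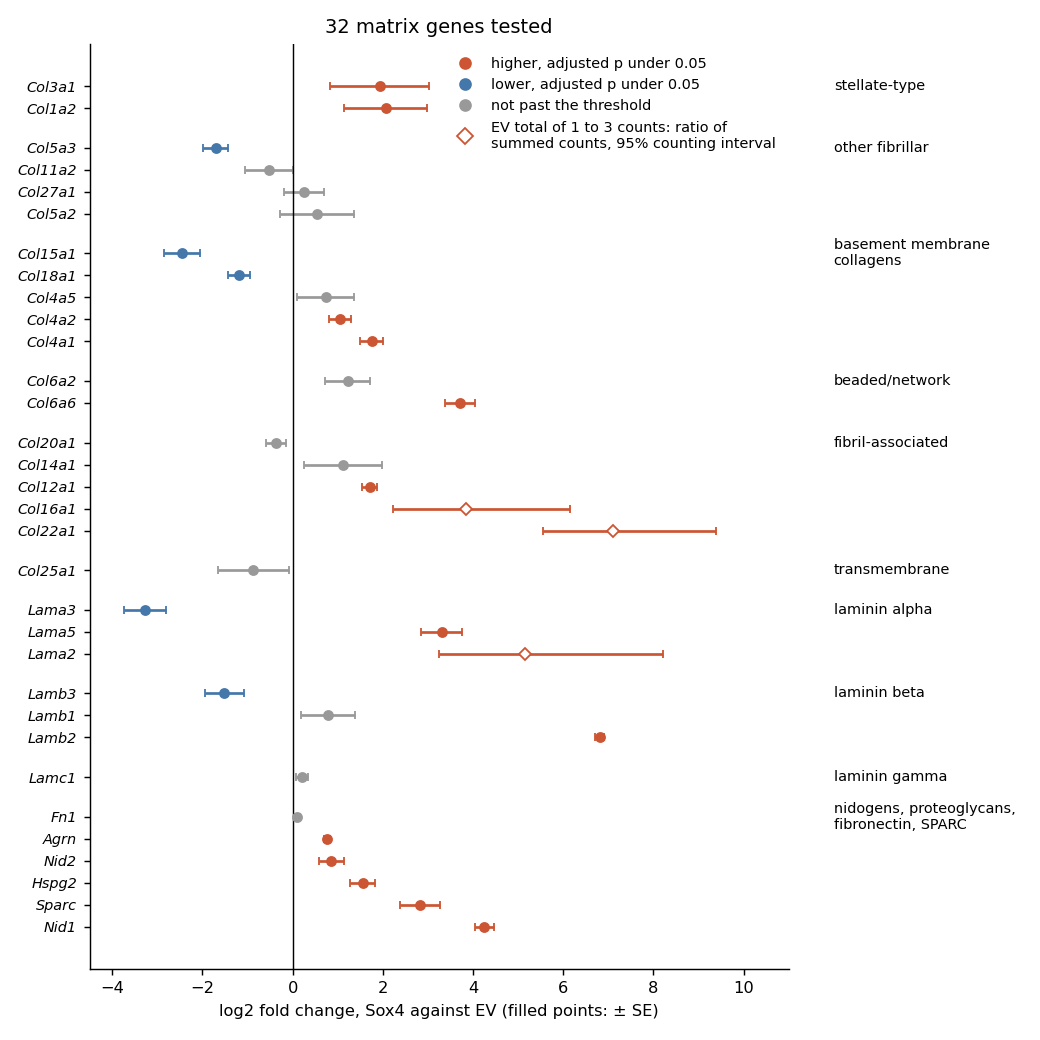
Log2 fold change (Sox4 against EV) of the 32 matrix genes tested, grouped by class. Filled points carry the SE, and open diamonds, for genes with 1 to 3 counts over the EV group, show the ratio of summed counts with its 95% exact counting interval. Lamb2 and Col22a1 lie furthest to the right, Lama3 and Col15a1 furthest to the left, and rises and falls occur within the laminin alpha, laminin beta and basement membrane collagen classes.

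Stellate-type collagens were present at low levels in both groups. Col3a1, the type III chain, had 1, 19 and 20 counts in EV and 35, 93 and 98 counts in Sox4, or 0.0771, 1.44 and 1.45 CPM against 1.75, 4.75 and 4.97 CPM. Library 1 was the lowest of its group on both sides, and the highest EV value was close to the lowest Sox4 value. The fitted rise was 3.82-fold (log2 1.93 ± 1.10, adjusted p = 0.0401). Col1a2, a type I chain, had 0, 7 and 9 against 20, 35 and 45 counts, or 0, 0.532 and 0.654 CPM against 1.0, 1.79 and 2.28 CPM. Again library 1 was lowest in each group (4.18-fold, log2 2.06 ± 0.91, adjusted p = 0.0310). Col1a1, the other type I chain, had 0, 2 and 4 counts in EV and 7, 18 and 20 in Sox4 and was too low for the test.

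Both calls depended on single libraries. Col1a2 missed the threshold without EV library 2 (adjusted p = 0.0652), Sox4 library 2 (0.0780) or Sox4 library 3 (0.0867), and Col3a1 without EV library 2 (0.0653), EV library 3 (0.0648), Sox4 library 2 (0.109) or Sox4 library 3 (0.0970). Both stayed past it without EV library 1 (Col1a2 0.0480, Col3a1 0.0443), and without Sox4 library 1 all 3 genes were tested and past the threshold.

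Markers of other liver cells were set beside these collagens. Over the 3 collagens the summed level was 0.0771, 2.13 and 2.40 CPM in EV and 3.11, 7.46 and 8.26 CPM in Sox4. Of 18 stellate cell markers, 7 were tested and 4 rose, namely Reln, Rgs5, Ecm1 and Bgn. The 18 summed to 12.3, 31.0 and 54.8 CPM in EV and 142, 158 and 113 CPM in Sox4, most of it Reln (reelin), with 92, 298 and 517 counts in EV and 2522, 2291 and 1003 in Sox4. Reln did not share the low value of Sox4 library 1. Without Reln the list summed to 5.16, 8.35 and 17.2 CPM in EV and 15.2, 41.1 and 62.0 CPM in Sox4, so the lowest Sox4 library lay below the highest EV library. Summed counts were higher in Sox4 for 18 of 18 stellate markers, for example Dcn (100 in EV and 649 in Sox4), Lrat (15 and 94), Colec11 (15 and 75) and Pdgfrb (1 and 43), with no scaling applied. The direction was not particular to stellate markers: it held for 12 of 12 Kupffer, 15 of 16 endothelial, 10 of 10 cholangiocyte and 3 of 9 hepatocyte markers. The size differed between the lists. Mean sums in CPM changed 4.09-fold for the 3 collagens, 4.21-fold for the stellate markers and 3.85-fold for those without Reln. They changed 2.36-fold for Kupffer, 2.24-fold for cholangiocyte and 1.31-fold for endothelial markers. Scaled by total counts, the median log2 change of all genes was itself 0.51. The 3 stellate markers with no EV count, Acta2, Gfap and Hand2, were near 0 in Sox4 too, with 5, 1 and 5 counts. Des had 5 counts over the EV libraries and 21 over the Sox4 libraries. Among 16 endothelial markers 3 rose, 1 fell and 12 did not pass, and the groups overlapped for 13. Their sums overlapped too (35.3 to 62.7 CPM in EV, 38.6 to 85.5 CPM in Sox4). Macrophage (Kupffer) markers rose in 5 of 11 tested (14.4 to 30.1 CPM and 32 to 73.7 CPM over 12 genes). Across all genes tested 55.1% passed, with 29.0% higher and 26.0% lower. Of 5 tested cholangiocyte markers 2 rose, Spp1 and Epcam (28.5 to 44.2 CPM and 74.5 to 87.1 CPM over 10 genes), with Krt7, Krt19 and Tspan8 at 0 in EV, and 6 of 9 tested hepatocyte markers fell (118376 to 140545 CPM and 84088 to 97860 CPM). With total counts the hepatocyte sums overlapped and their ratio was 0.941 in place of 0.680, 4 hepatocyte markers fell, and 5 stellate, 5 endothelial, 9 Kupffer and 4 cholangiocyte markers rose. The part of these cells in the matrix gene results was not tested.

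Sox4 library 1 was at or under 0.5 of the mean of the other 2 Sox4 libraries in 8 of 32 matrix genes, against 3.57% of all genes. Its level relative to that mean was 0.361 for Col3a1, 0.493 for Col1a2, 0.202 for Col5a2 and 0.352 for Col14a1. For Lamb1 it was 0.265, for Sparc 0.426, for Col4a5 0.427 and for Lamb3 0.473. Other members were nearer to the mean, with 0.879 for Lamb2, 0.778 for Nid1, 0.718 for Lama5, 1.04 for Col4a1 and 1.05 for Agrn. Col22a1, a fibril-associated collagen, was at 0.959. In the stellate markers other than Reln it was 0.295 as a sum. Without that library 26 of 38 matrix genes tested were called (68.4%, against 55.6% of all genes tested), 20 higher and 6 lower. All 21 named above were among them. The share of 3.57% is not matched for level, and Col5a2, Lamb1 and Col1a2 had mean counts of only 10.5, 13.7 and 19.3. For Lamb3, EV library 1 was at 1.79 of the mean of the other EV libraries, whereas its stellate, Kupffer and endothelial sums were low.

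Other fibrillar collagens gave 1 call of 4 tested, beside 55.1% of all genes tested. Col5a3, a chain that modifies fibril assembly, was 47.2, 43.6 and 32.6 CPM in EV and 16.8, 11.2 and 9.83 CPM in Sox4. It fell 3.26-fold without overlap (log2 -1.70 ± 0.28, adjusted p = 1.75e-04). Col27a1 was spread widely in Sox4, at 37.3, 29.2 and 15.7 CPM against 29.9, 16.7 and 22.4 CPM in EV, and did not pass (adjusted p = 0.545). Its fold change turned sign without Sox4 library 1 (log2 -0.04). Col5a2 and Col11a2 did not pass either, with under 50 counts over each group. Col5a1 was too low to test, at 1, 1 and 4 counts against 7, 26 and 17.

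Fibril-associated collagens, which coat or bridge fibrils, gave 3 rises of 5 tested, beside 29.0% of all genes tested. Col22a1, known from tissue junctions such as those of muscle and tendon, had 2, 1 and 0 counts in EV and 200, 208 and 203 in Sox4. The 3 Sox4 libraries were nearly equal, and the ratio was 137 (95% exact counting interval 46.7 to 667, adjusted p = 2.02e-06). Col12a1, found on fibril surfaces, rose 3.26-fold, from 4.08, 4.18 and 5.45 CPM to 14.0, 17.1 and 13.7 CPM (log2 1.71 ± 0.16, adjusted p = 5.34e-05). Col16a1 had 0, 3 and 0 counts in EV and 20, 30 and 14 in Sox4, a ratio of 14.4 (4.70 to 71.5, adjusted p = 0.00493), and EV was at 0 without library 2. Col14a1 overlapped, at 0.385, 1.37 and 2.54 CPM against 1.40, 2.86 and 5.12 CPM (adjusted p = 0.167), and Col20a1 was at 1.93 ± 0.228 and 1.48 ± 0.357 CPM, with a sign that turned under scaling by total counts (log2 -0.38 and 0.09).

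Among beaded filament, anchoring and network collagens, Col6a6 rose, with 2, 3 and 1 counts in EV and 45, 48 and 29 in Sox4 (log2 3.71 ± 0.33, adjusted p = 2.67e-04). With so few EV counts this SE understates the uncertainty of the change. Col6a2 lay above EV in every Sox4 library, at 0.709 ± 0.0874 CPM against 0.297 ± 0.216 CPM, without passing the test (adjusted p = 0.108). Scaled by total counts it passed (adjusted p = 0.0306). Col6a1, which joins Col6a2 in the type VI trimer, could not be tested, at 0, 1 and 5 counts against 8, 19 and 22. Col6a3, the usual partner of both, had no count in EV and 5, 9 and 16 in Sox4, at least 6.74-fold higher. Col26a1 also had none in EV and 22, 14 and 1 in Sox4, at least 8.31-fold higher over the group, though 1 Sox4 library held a single count.

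Of 4 transmembrane collagens, Col25a1 was tested and overlapped (EV 0.900 ± 0.101 CPM, Sox4 0.487 ± 0.481 CPM, adjusted p = 0.320). Without Sox4 library 1 it passed as lower (log2 -1.94, adjusted p = 0.0499). Col13a1 was too low to test, at 5, 3 and 6 counts against 17, 9 and 20. The genes with no count in any library were Col2a1, Col6a4, Col6a5, Col8a1, Col9a1, Col17a1, Col19a1 and Col28a1, which includes the cartilage type II and the hemidesmosome type XVII chains.

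Fibronectin and SPARC behaved differently. Fn1, secreted by hepatocytes as plasma fibronectin, had the highest mean level per kb of exon in Sox4, shared the top of the EV order with Col18a1, and overlapped between the groups. It read 2196, 2420 and 2526 CPM in EV and 2448, 2651 and 2559 CPM in Sox4 (log2 0.10 ± 0.07, adjusted p = 0.568). Its call depended on the zero point: scaled by total counts it was higher (log2 0.57, adjusted p = 0.00525). Antisense gene Apol7d covers 2.50% of its exon bases. Sparc, a calcium-binding glycoprotein that binds collagen, went from 1.77, 2.51 and 2.83 CPM to 8.87, 20.5 and 21.1 CPM. It rose 7.07-fold without overlap (log2 2.82 ± 0.45, adjusted p = 2.17e-04), and its level in Sox4 library 1 was 0.426 of that in the other 2, a low value shared with the stellate and endothelial markers.

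Ranked per kb of exon, Fn1 (204 ± 14.4 CPM per kb) and Col18a1 (190 ± 27.0) led the EV libraries, and this pair did not differ beyond its spread. Together they were 48.2% and 45.0% of the summed matrix level. Col5a3 (6.04 ± 1.12) and Agrn (5.45 ± 0.248) followed, again within their spread. In Sox4 hepatocytes Fn1 was at 218 ± 8.67, or 60.4%, and Col18a1 at 84.0 ± 22.7, or 23.2%. Next came Nid1 (11.5 ± 1.98) and Agrn (9.25 ± 0.474), then Col4a1 (5.93 ± 0.810) and Lamb2 (4.77 ± 0.362), whose ranges touched those of Col4a2 (4.65 ± 0.722) and Sparc (4.45 ± 1.82). Lama3 dropped from rank 11 to rank 35 and Col15a1 from rank 5 to rank 19. The summed CPM of all 61 genes was 3945 ± 146 in EV and 3598 ± 88.8 in Sox4, while without Fn1 and Col18a1 it was 227 ± 19.9 and 456 ± 26.1. The ratio of the first pair depended on the scaling, 0.912 with TMM and 1.26 with total counts.

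Genes that modify, secrete, bind or accompany these proteins were taken as 4 further lists, 67 genes in all. Of these, 35 were tested and 21 passed (60%), 15 higher and 6 lower, beside the 55.1% of all genes. Sox4 library 1 was at or under 0.5 of the mean of the other Sox4 libraries in 6 of the 35, namely Pxdn, Postn, Ntn4, Tgfbi, Ccn2 and Cd44, the last 3 of them called. Collagen and laminin receptors other than integrins gave 4 calls of 4, with Ddr1, Bcam and Cd44 higher and Dag1 lower. Ddr1, a receptor tyrosine kinase that binds collagen, went from 0.154, 1.44 and 0.944 CPM to 47.6, 43.7 and 34.2 CPM, 48.8-fold (log2 5.61 ± 0.77, adjusted p = 9.83e-06). Bcam, a receptor for the laminin alpha-5 chain, rose 9.08-fold from 0.631 ± 0.349 to 5.76 ± 1.13 CPM (adjusted p = 1.16e-04). Dag1, dystroglycan, was lower, at 136 ± 10.8 and 99.0 ± 6.44 CPM (log2 -0.46, adjusted p = 0.00638), a fall that was absent under scaling by total counts (log2 0.01).

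Of 14 tested glycoproteins and proteoglycans, 8 rose and 1 fell, beside 29.0% and 26.0% of all genes tested. Ccn2, connective tissue growth factor, had 0, 1 and 0 counts in EV and 202, 405 and 447 counts in Sox4, with a ratio of 710 (95% exact counting interval 127 to 28068, adjusted p = 6.51e-06). Its relative Ccn1 went from 40.5, 51.5 and 47.1 CPM to 577, 483 and 393 CPM, 10.4-fold (adjusted p = 8.87e-07). Tgfbi, a collagen-binding secreted protein, rose 3.02-fold by the test (adjusted p = 0.0132) although 1 EV library, at 2.98 CPM, lay above the lowest Sox4 library, at 2.96 CPM, a call lost without EV library 1 (0.0501) or EV library 2 (0.0559). Smoc1, a basement membrane protein related to SPARC, fell by 0.40 on the log2 scale (adjusted p = 0.0179). That call was lost without EV library 2 (0.0858) or Sox4 library 2 (0.0749), and its sign turned under scaling by total counts (log2 0.07).

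Genes for collagen hydroxylation, glycosylation and folding were split, with 4 higher and 4 lower of 12 tested. Over all genes tested 29.0% were higher and 26.0% lower. Among the 4 lower, Ppib turned sign with total counts (log2 -0.39 by TMM and 0.08). P4hb, the beta subunit of prolyl 4-hydroxylase and a general disulfide isomerase, fell 2.43-fold from 1990, 2020 and 1845 CPM to 895, 777 and 736 CPM (adjusted p = 6.38e-05). Mia3, needed to load procollagen into transport carriers, fell from 300 ± 30.7 to 174 ± 8.92 CPM (log2 -0.78, adjusted p = 5.83e-04). Colgalt1, which adds galactose to collagen hydroxylysine, rose 2.77-fold from 79.2 ± 4.05 to 219 ± 25.1 CPM (adjusted p = 1.17e-05). Crtap, a subunit of the prolyl 3-hydroxylase complex, rose 2.21-fold (adjusted p = 0.00252). Plod2, a lysyl hydroxylase, had no count in EV and 14, 20 and 33 counts in Sox4, at least 15-fold higher (adjusted p = 0.00122). Exons of Colgalt1 share 11.4% of their bases with Unc13a on the other strand. None of the 5 tested genes of procollagen cleavage and crosslinking passed in the edgeR test, and their median log2 fold change was 0.34. At an unadjusted p of 0.05 the count was also 0, while DESeq2 called 1, scaling by total counts 2 and the fit without the filter 4.

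**Figure D4:**
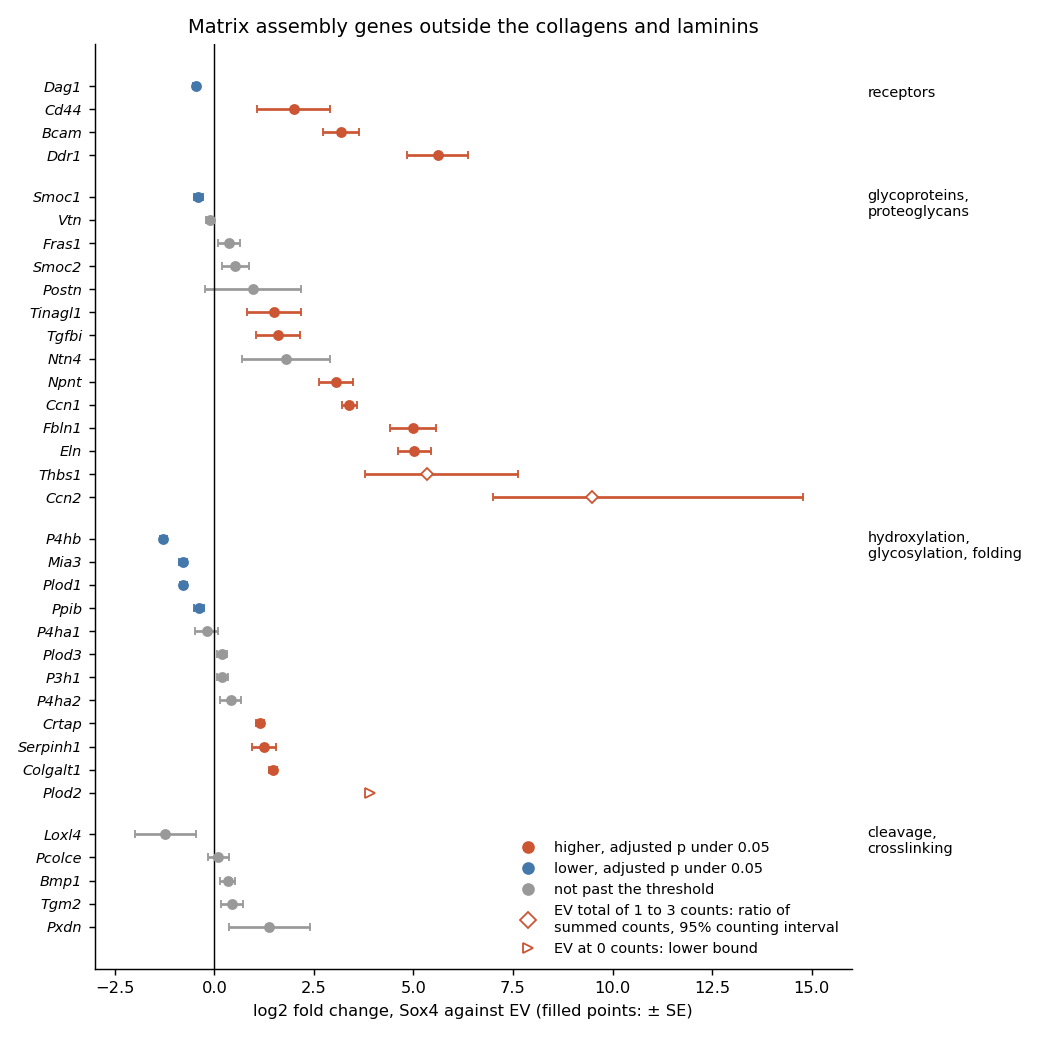
Log2 fold change (Sox4 against EV) of the 35 tested genes in the 4 further lists. Filled points carry the SE, open diamonds mark genes with 1 to 3 counts over the EV group (ratio of summed counts with its 95% exact counting interval), and the open triangle is the lower bound for a gene with no EV count. Ccn2 and Ddr1 lie furthest to the right, P4hb lowest among the genes that passed, and none of the 5 cleavage and crosslinking genes passed.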

How the data were processed

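RNA was taken from hepatocytes of 3 EV and 3 Sox4 mice, and groups come from the sample titles. The authors used STAR with GRCm39 and featureCounts 2.0.1, per the labels, and the deposited gene counts are raw. The annotation release and strand setting are not given in the sources used here. A deposited normalised table was not used. Counts were filtered with filterByExpr (minimum count 10, minimum total 15), scaled by TMM and tested with the edgeR 4.0.16 quasi-likelihood F test (two-sided, R 4.3.3), with Benjamini-Hochberg adjustment over 12691 genes and a threshold of 0.05. The script was tested on simulated data. CPM uses TMM-scaled library sizes, and CPM per kb divides by the union of GENCODE exons on GRCm38. SE is that of the difference of group means of log2 CPM (prior count 2). The prior count damps it where a group holds few counts. Folds rest on a floor of 3 counts over the EV group: with no EV count a lower bound is given, and with 1 to 3 a ratio. Counting intervals and floors cover counting error only. The labels name no shared litter or culture, so p-values measure the spread between these libraries. No 2 libraries were alike within sampling noise (chi-square per degree of freedom 17.6 to 62.7). Full statistics are given for stellate-type collagens and for called genes whose mean count reached 50 and whose fold reached 2. Other laminins, type IV, XV and XVIII collagens and non-collagen members are given with values when tested, other members when their total count reached 50, and in each further list the 4 largest called changes at that mean count, Cd44, Ppib and Plod2 being named besides after their values were seen. The members and gene lists were chosen with earlier results of these data known. Alternatives were scaling by DESeq2 size factors or total counts, DESeq2 1.42.0, other filters, the replicate number as a block, and leaving out each library. The values of 1 gene are not reported here.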

Additional observations from a re-analysis of the deposited data

How the results depend on the processing

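Matrix gene calls numbered 19 to 26 when each library was left out (14 to 20 higher, 5 to 6 lower), beside 21, and all 21 were called again under every setting except the 5 that follow. A minimum mean count of 50 left out Col16a1, Col1a2, Col3a1, Col6a6, Lama2 and Lamb3. Col3a1 was lost without EV library 3, and Col1a2 and Col3a1 without EV library 2, Sox4 library 2 or Sox4 library 3. Without the filter 25 genes were higher in place of 16, and 56.6% of matrix genes were called against 31.8% of all genes. DESeq2 added Col26a1, Col5a1, Col6a1, Col6a3 and Lamc3 among others, which rest on few counts. Scaling by total counts gave 6468 higher and 1624 lower calls over all genes, and added Col6a2, Fn1 and Lamc1.

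By class, beaded filament and network collagens had 2 calls with total counts, 4 with DESeq2, 4 without the filter, 0 with a mean count of 50 and 1 to 2 leaving out a library. Other fibrillar collagens had 2 with DESeq2, 2 without the filter and 1 to 2 leaving out a library. With a mean count of 50, stellate-type collagens had 0 calls, laminin beta chains 1 and the further lists 13. Leaving out a library gave stellate-type collagens 0 to 3 calls and transmembrane collagens 0 to 1. The log2 fold change turned sign with total counts for Col20a1 (0.092), Dag1 (0.010), Smoc1 (0.073) and Ppib (0.084), and also for P4ha1, Vtn, Ttr, Cps1, Apob and Ehd3, which were not called. It lay between -0.040 and 0.54 for Col27a1 when a library was left out. Where no value above shows it, the cause was not tested.

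The labels give both groups the same replicate numbers. Deviations of same-numbered libraries from their group means correlated at 0.27, -0.09 and 0.13, the first value being that of library 1. These values do not settle whether same-numbered libraries were paired. Library 1 was low in stellate, Kupffer and endothelial markers in both groups. With the replicate number as a block, 7362 genes and 22 matrix genes were called, Col14a1 being the addition (log2 1.20, adjusted p = 0.0144). Low counts limit the genes below the filter, where a count of 0 allows up to 3 counts.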
